A study of Mus musculus with 6 samples.

Results

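Small nucleolar RNAs were compared between AB22 mesothelioma cells that expressed a hairpin against Hmgb1 and AB22 cells that expressed a control hairpin. The members were the rows of the deposited expression table whose mouse gene symbol begins with Snora, Snord or Scarna followed by a digit. There were 50 of them among 12134 listed genes. They fall by symbol into 21 H/ACA RNAs (Snora), 26 C/D RNAs (Snord) and 3 Cajal body RNAs (Scarna). All 50 passed the filter on low values, which asked for 0.5 RPKM or more averaged over all 6 libraries.

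Small nucleolar RNAs are short non-coding RNAs that pair with other RNAs and guide their chemical modification in the nucleolus. C/D RNAs carry the sequence boxes C and D and direct ribose methylation, and H/ACA RNAs end in an ACA box and direct pseudouridylation, mostly of ribosomal RNA. A few of them take part in cleavage of the ribosomal RNA precursor instead of its modification. Small Cajal body RNAs use the same boxes and guide modification of spliceosomal RNAs in Cajal bodies. Most mammalian members are cut out of introns of host genes, many of which encode ribosomal proteins or non-coding transcripts, and are kept stable by a set of core proteins.

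AB22 is a murine malignant mesothelioma line. The shHMGB1 group was infected with pTRIPZ-shHMGB1 lentivirus, and the shCTRL group with pTRIPZ-shCTRL. In both groups the multiplicity of infection was 20, puromycin selection used 4 µg/mL, oxygen was held at 5%, and 1 µM doxycycline had switched the hairpin on for 7 to 10 days. RNA was total RNA of cells synchronized in G1, and ribosomal RNA was removed by subtraction before library preparation. Each group has 3 libraries, named A, B and C, which the series lists as biological replicates. No label says whether they came from separate infections. The p-values thus set the group difference against the spread of these cultures only. The labels name 1 vector for each group and do not say whether the cells were clones.

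Values are RPKM, which are read counts scaled to gene length and to library size. The library sizes implied by the values were 19539000, 22102000 and 14894000 reads in replicates A, B and C of shHMGB1, against 13700000, 10871000 and 25560000 reads in the shCTRL replicates A, B and C. A read on a gene of 100 bases was worth 0.391 to 0.920 RPKM. Hmgb1 measured 7.18, 5.79 and 3.80 RPKM in the shHMGB1 libraries, against 33.4, 45.5 and 31.9 RPKM in the shCTRL libraries, with no overlap. Of 13 mesothelial markers 5 were listed, with summed levels of 459.6 to 579 RPKM in shHMGB1 libraries and 592 to 668 RPKM in shCTRL libraries, and 8, Wt1, Upk3b, Krt8, Krt18, Krt19 and Calb2 among them, were not. Efemp1 made up most of that sum, at a mean of 452 RPKM, and its groups overlapped (log2 fold change -0.16). Msln, Bnc1 and Gas1 were lower in every shHMGB1 library, at -1.02, -0.69 and -0.64 (adjusted p = 0.249, 0.479 and 0.528 in limma). Haematopoietic markers were listed for 0 of 7 genes, and endothelial markers for 1 of 5, Kdr at a mean of 1.80 RPKM. Fibroblast markers were listed for 4 of 5, with summed levels of 242, 469 and 1129 RPKM in replicates A, B and C of shHMGB1, against 399, 213 and 460.2 RPKM in the shCTRL replicates A, B and C. Col1a1 made up most of that sum and its groups overlapped (log2 fold change 0.62). Lum and Dcn were higher in every shHMGB1 library, at 2.35 and 1.42 (adjusted p = 0.168 and 0.346 in limma), and Pdgfra was at -0.59 with overlap. Of all genes tested, 14.0% did not overlap between the groups, or 7.07% counting lower genes alone. Bnc1, Gas1, Lum and Dcn are named after their values were seen, and the part of either marker set in the members' values was not tested.

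The C/D members with the smallest p-values in the comparison were Snord15b, Snord15a, Snord19 and Snord21. Their sequences, except that of Snord19, show the exact letters of both boxes that define the class. They are given 5′ to 3′ on the RNA strand from GENCODE M21 transcripts on GRCm38, in lower case. Capitals mark the box C core TGATGA and the box D motif CTGA nearest the 3′ end. Snord15b lies at chr7:99479563-99479707 and Snord15a at chr7:99482785-99482932, both on the minus strand within Rps3. Snord19 lies at chr14:31016206-31016281 on the minus strand within Gnl3, and Snord21 at chr5:107904555-107904648 on the plus strand within Rpl5.
Snord15b: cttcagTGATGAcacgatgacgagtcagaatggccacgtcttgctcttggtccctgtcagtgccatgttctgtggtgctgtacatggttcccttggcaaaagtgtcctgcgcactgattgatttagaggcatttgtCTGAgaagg
Snord15a: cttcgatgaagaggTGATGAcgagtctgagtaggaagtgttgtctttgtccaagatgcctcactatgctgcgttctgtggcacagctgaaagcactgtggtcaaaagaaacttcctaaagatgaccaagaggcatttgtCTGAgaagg
Snord19: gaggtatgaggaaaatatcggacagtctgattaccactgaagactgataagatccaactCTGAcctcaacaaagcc
Snord21: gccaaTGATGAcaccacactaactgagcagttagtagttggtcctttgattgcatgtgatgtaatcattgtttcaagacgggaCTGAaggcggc
The letters TGATGA followed by CTGA were found in 20 of 26 C/D members (76.9%), against 75.5% of the 98 C/D RNAs of these names in the annotation, and in 0 of 21 H/ACA members. Snord19 has CTGA and no exact TGATGA. Only the RNA strand was searched. Snord15b and Snord15a share 107 of 162 aligned positions (66.0%), and their longest common run is 21 bases.

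Among the H/ACA members, Snora73b was the most abundant, Snora73a is its close copy and Snora21 had the largest negative fold change, and Scarna13 was the most abundant Cajal body RNA. Capitals mark the letters ACA placed 3 bases from the 3′ end. Snora73b lies at chr4:132352322-132352526 and Snora73a at chr4:132352775-132352979, both on the minus strand within Snhg3. Snora21 lies at chr11:97781639-97781775 on the minus strand in an intron of Rpl23, and Scarna13 at chr12:105031075-105031349 on the minus strand in an intron of Snhg10.
Snora73b: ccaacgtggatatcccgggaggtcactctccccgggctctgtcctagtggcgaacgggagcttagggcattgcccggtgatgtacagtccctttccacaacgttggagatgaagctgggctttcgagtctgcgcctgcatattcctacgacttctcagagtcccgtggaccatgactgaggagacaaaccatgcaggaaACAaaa
Snora73a: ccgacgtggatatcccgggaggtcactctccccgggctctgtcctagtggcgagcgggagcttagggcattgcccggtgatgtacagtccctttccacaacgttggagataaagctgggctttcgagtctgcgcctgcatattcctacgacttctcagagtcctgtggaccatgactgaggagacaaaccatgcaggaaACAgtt
Snora21: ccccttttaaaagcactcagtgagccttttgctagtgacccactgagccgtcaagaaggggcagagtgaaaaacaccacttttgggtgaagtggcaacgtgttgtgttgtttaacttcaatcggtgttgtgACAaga
Scarna13: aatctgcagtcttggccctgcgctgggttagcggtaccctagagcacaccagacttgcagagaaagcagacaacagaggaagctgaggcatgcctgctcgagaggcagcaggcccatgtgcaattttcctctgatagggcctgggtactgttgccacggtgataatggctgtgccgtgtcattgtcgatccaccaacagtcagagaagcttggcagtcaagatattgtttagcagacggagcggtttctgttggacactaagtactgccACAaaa
ACA at that place was found in 17 of 21 H/ACA members (81.0%), against 85.0% of the 40 annotated H/ACA RNAs, and in 0 of 26 C/D members. Snora73b and Snora73a are identical at 198 of 205 positions (96.6%), with a longest common run of 56 bases.

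The annotation holds 147 genes with names of this pattern, and the table lists 34.0% of them. The share was 52.5% of 40 H/ACA RNAs, 26.5% of 98 C/D RNAs and 33.3% of 9 Cajal body RNAs. The listed RNAs had a median length of 130 bases, against 90.0 bases for the other annotated ones. By class the medians were 137 against 131.0 bases for H/ACA RNAs, 81 against 85.5 bases for C/D RNAs and 275 against 135.0 bases for Cajal body RNAs. Of the 50 members, 16 lie in an intron of a host gene on the same strand. Another 26 lie in an exon of at least 1 annotated host transcript, and 2 lie partly in such an exon. For 6 no host was found in this annotation (Snora17, Snora57, Snord13, Snord104, Snord118 and Scarna2). How reads shared with a host exon were assigned, and whether strand was used, is not given in the sources used, so values of the 28 members in exons may hold host reads. Snora73a and Snora73b overlap exons of Gm17300 on the other strand. For 14 members another annotated transcript was at least 95% identical over at least 50 bases, Snora73a and Snora73b included, so their reads may be divided between copies.

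Levels spanned a wide range. Snora73b, a U17 RNA of the family known in yeast and vertebrates for its part in cleavage of the ribosomal RNA precursor, averaged 1046 RPKM over the 6 libraries and ranked 33 among all genes. Snora74a averaged 546 RPKM, Scarna13 averaged 416 RPKM, Snord17 averaged 248 RPKM and Scarna2 averaged 219.8 RPKM. At the other end Snora23 averaged 5.88 RPKM. The class medians of the mean level were 19.0 RPKM for H/ACA members, 27.3 RPKM for C/D members and 219.8 RPKM for Cajal body members. The 4 members with the most reads, Snora73b, Scarna13, Snora74a and Scarna2, held 68.8% of all member reads. For 21 of the 50 members the mean was below 30 reads per library, and the lowest count was 5 reads, of Snora21 in shHMGB1 replicate C. Snora73a, at 20.6 RPKM, stood far below its near-identical copy Snora73b.

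No small nucleolar RNA changed past the threshold when Hmgb1 was silenced. In limma's test over 11669 genes with Benjamini-Hochberg adjustment, 0 of the 50 members had an adjusted p below 0.05, and the background was 0.0257% of all genes tested. The smallest adjusted p was 0.555, that of Snord15b, and limma's voom on recovered reads gave 0 calls and 0.587. At an unadjusted p below 0.05 there was 1 member, Snord15b, in a background of 7.91% of all genes, or 4.13% counting lower genes alone. The shHMGB1 and shCTRL libraries overlapped for all 50 members, whereas they did not overlap for 14.0% of all genes, or 7.07% counting lower genes alone. Within bulk RNA, fewer expressing cells and less RNA per cell cannot be told apart.

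The members' fold changes leaned to lower values in shHMGB1 as the authors scaled the libraries. The log2 fold change, shHMGB1 over shCTRL, was negative for 42 of 50 members, against 48.3% of all genes, and its median was -0.22 against 0.01 over all genes. By class it was negative for 18 of 21 H/ACA members (median -0.17), 21 of 26 C/D members (median -0.26) and 3 of 3 Cajal body members (median -0.29). When libraries were rescaled to equal sums of RPKM over all genes but the members and Rn18s-rs5, the all-gene median moved to 0.32. The members' median moved to 0.09, with 18 of 50 members negative, against 13.7% of all genes. Such rescaling shifts all genes by nearly the same amount. The distance of -0.23 between the members and all genes was thus fixed by construction and is no check on it. With the log2 level of Rn18s-rs5 as a covariate, the direction turned: 16 members were negative and 34 positive, with a median of 0.12. Of all genes, 50.1% were negative in that fit. Rn18s-rs5 itself had a log2 fold change of -2.59 between the groups, which overlapped. The covariate thus takes up part of the group difference, and this fit cannot tell the 2 apart. Medians by class with that covariate were 0.11 for H/ACA, 0.18 for C/D and -0.03 for Cajal body members.

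Single libraries moved these counts. Without shHMGB1 replicate A 45 members were negative and 13 had an unadjusted p below 0.05 in limma, where 20.9% of all genes had one. Without shCTRL replicate C 45 were negative and 8 had such a p, against 6.04% of all genes. Without shHMGB1 replicate B 29 were negative, without shHMGB1 replicate C 32, without shCTRL replicate A 31 and without shCTRL replicate B 38. Of those, leaving out shHMGB1 replicate C gave 3 members with an unadjusted p below 0.05 (6.43% of all genes) and the other 3 gave 0 (3.65%, 6.88% and 3.91% of all genes without shHMGB1 replicate B, shCTRL replicate A and shCTRL replicate B). Of all genes, 48.0% to 49.3% were negative in these 6 fits. The C/D median was -0.48 without shHMGB1 replicate A and -0.47 without shCTRL replicate C, and -0.06 without shHMGB1 replicate B and -0.09 without shHMGB1 replicate C or shCTRL replicate A. The H/ACA median was -0.39 without shHMGB1 replicate A and -0.43 without shCTRL replicate C, and -0.12 to -0.18 without any other library. The Cajal body median was -0.54 without shHMGB1 replicate A and -0.43 without shCTRL replicate C, and -0.19 to -0.32 without any other library. The adjusted p of every member stayed at 0.05 or above in each of these fits.

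**Figure D1:**
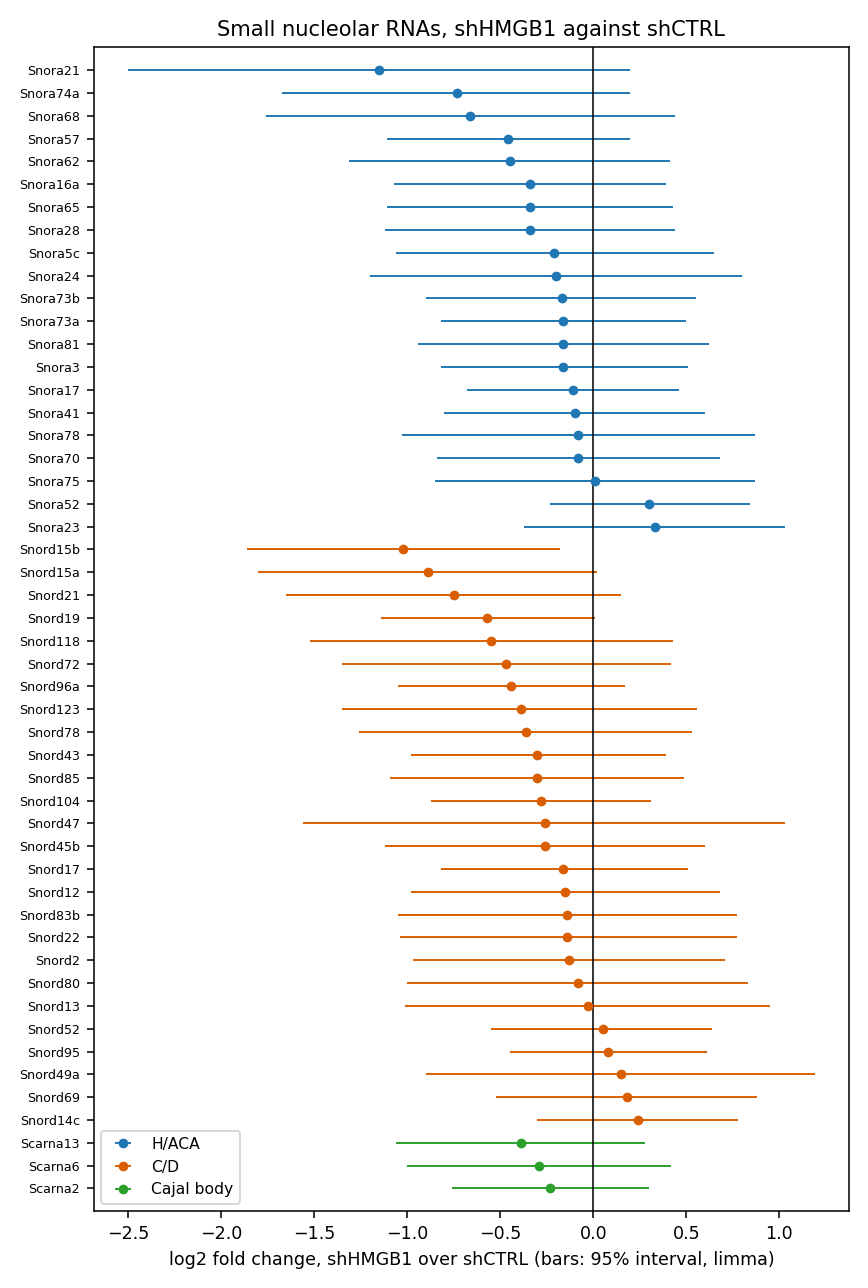
Log2 fold changes of the 50 members, shHMGB1 over shCTRL, with bars for limma's 95% interval, sorted within the H/ACA (blue), C/D (orange) and Cajal body (green) classes. As deposited, 42 of 50 points lie below 0, against 48.3% of all genes, and only the interval of Snord15b leaves out 0. With Rn18s-rs5 as a covariate (not drawn) 16 members are negative, against 50.1% of all genes. With libraries rescaled to equal sums (not drawn) 18 are, against 13.7% of all genes.

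The lowest C/D values relative to control were those of the Rps3 pair, whose human counterparts guide methylation of large-subunit ribosomal RNA. Snord15b measured 167, 93.1 and 113 RPKM in replicates A, B and C of shHMGB1, against 295, 345 and 142 RPKM in the shCTRL replicates A, B and C. All shHMGB1 values lay below shCTRL replicates A and B, and shCTRL replicate C fell between shHMGB1 replicates A and C. Its reads numbered 472, 298 and 243 in shHMGB1, against 586, 543 and 527 in shCTRL. This gave a log2 fold change of -1.02 with an SE of 0.36 (unadjusted p = 0.0237 and adjusted p = 0.555 in limma) and a 95% interval of -1.86 to -0.18. It was negative in all 19 fits that were run, from -1.40 without shCTRL replicate C to -0.44 with the Rn18s-rs5 covariate, and its adjusted p ranged from 0.179 to 0.999. Snord15a, in an intron of Rps3, measured 61.6, 28.5 and 46.4 RPKM in shHMGB1, against 95.8, 116 and 46.9 RPKM in shCTRL. It showed the same arrangement, with shCTRL replicate C inside the shHMGB1 range, and its log2 fold change of -0.89 had an SE of 0.39 (adjusted p = 0.641 in limma). Rps3 itself, a small-subunit ribosomal protein gene, stood at -0.47 on the same log2 scale (adjusted p = 0.727).

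Snord21, from the ribosomal protein gene Rpl5, measured 12.7, 9.78 and 11.6 RPKM in shHMGB1, against 31.2, 22.7 and 9.72 RPKM in shCTRL. The shHMGB1 libraries were close together, and shCTRL replicate C was the lowest of all 6. It rested on 16 to 23 reads per shHMGB1 library and 23 to 40 per shCTRL library, and its log2 fold change was -0.75 ± 0.39 (SE, adjusted p = 0.687). Snord19, from the nucleostemin gene Gnl3, measured 13.7, 10.9 and 9.90 RPKM in shHMGB1, against 24.2, 14.7 and 13.6 RPKM in shCTRL. The groups overlapped at shHMGB1 replicate A and shCTRL replicate C alone, and the log2 fold change of -0.57 had an SE of 0.25 (adjusted p = 0.638). The other abundant C/D members lay nearer to 0. Snord17, in an intron of the sorting nexin gene Snx5, measured 315, 159.9 and 236 RPKM in shHMGB1, against 242, 329.7 and 208 RPKM in shCTRL (log2 fold change -0.16). Here shHMGB1 replicate A stood among the highest libraries and replicate B was the lowest.

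Snord78, 1 of 3 members in Gas5, a non-coding host gene, measured 149.9, 92.8 and 65.3 RPKM in shHMGB1, against 177, 144 and 76.1 RPKM in shCTRL (log2 fold change -0.36). Snord96a, from Rack1, which encodes a ribosome-bound scaffold, measured 106, 65.0 and 54.1 RPKM in shHMGB1, against 116, 91.0 and 87.1 RPKM in shCTRL (log2 fold change -0.44). Snord2, from the translation initiation factor gene Eif4a2, measured 113, 65.1 and 49.8 RPKM in shHMGB1, against 119, 72.2 and 56.3 RPKM in shCTRL (log2 fold change -0.13). In all 3 of these, replicate A was the highest library of its group. Snord118, Snord22 and Snord13 are known for roles in maturation of ribosomal RNA. Snord118, the U8 RNA, had 11.5, 4.46 and 4.08 RPKM in shHMGB1, against 13.1, 6.92 and 7.35 RPKM in shCTRL, and Snord22, the U22 RNA from Snhg1, had 40.7, 19.9 and 22.5 RPKM in shHMGB1, against 40.7, 35.9 and 16.6 RPKM in shCTRL. Their log2 fold changes of -0.55 and -0.14 had standard errors of 0.42 and 0.39. Snord13, the U13 RNA, which in human cells helps to guide acetylation of small-subunit ribosomal RNA, had 24.7, 11.4 and 15.0 RPKM in shHMGB1, against 20.5, 24.9 and 8.79 RPKM in shCTRL (log2 fold change -0.03). Snord118, Snord22 and Snord13 were chosen for their roles after values were seen.

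Among H/ACA members, Snora21, which in human cells guides pseudouridylation of large-subunit ribosomal RNA, had the most negative fold change of the 50 and the lowest single count. It measured 13.6, 6.05 and 2.55 RPKM in shHMGB1, against 22.5, 12.2 and 8.67 RPKM in shCTRL, from 36, 18 and 5 reads against 42, 18 and 30 reads. shHMGB1 replicates B and C lay below every shCTRL library, and shHMGB1 replicate A was above shCTRL replicates B and C. Its log2 fold change of -1.15 had an SE of 0.58 and a 95% interval of -2.50 to 0.20 (adjusted p = 0.687). It was -0.55 without shHMGB1 replicate C and -1.74 without shHMGB1 replicate A. Snora74a, a U19 RNA and the next most abundant member after Snora73b, measured 659.7, 319.8 and 271 RPKM in shHMGB1, against 713, 902 and 409.9 RPKM in shCTRL. shHMGB1 replicates B and C were below every shCTRL library and replicate A was not. Its log2 fold change was -0.73 ± 0.40 (SE, adjusted p = 0.701), and -0.04 with Rn18s-rs5 as a covariate.

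Snora73b measured 1295, 607 and 1105 RPKM in shHMGB1, against 1123, 1276 and 869 RPKM in shCTRL. The highest and the lowest of the 6 values were both in shHMGB1, in replicates A and B. With 2749 to 5185 reads in shHMGB1 libraries and 2844 to 4554 in shCTRL libraries, it had a log2 fold change of -0.17, an SE of 0.31 and a 95% interval of -0.90 to 0.55 (adjusted p = 0.855). It was 0.15 without shHMGB1 replicate B. Snora73a averaged 19.9 ± 7.19 RPKM in shHMGB1 and 21.3 ± 2.64 RPKM in shCTRL (SD, n = 3 each), with a log2 fold change of -0.16. Both copies were thus highest in shHMGB1 replicate A and lowest in shHMGB1 replicate B.

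Snora57, which has no annotated host, measured 77.9, 49.9 and 59.5 RPKM in shHMGB1, against 94.3, 112 and 56.7 RPKM in shCTRL (log2 fold change -0.46 ± 0.28 SE). Snora65, from Rpl12, measured 60.7, 35.3 and 25.9 RPKM in shHMGB1, against 60.7, 52.5 and 35.6 RPKM in shCTRL (log2 fold change -0.34 ± 0.33 SE). In both the replicate A value of shHMGB1 reached into the shCTRL range, and for Snora57 the replicate C value did too. Adjusted p-values were 0.720 and 0.775 in limma. Snora78, in an intron of Snhg9, measured 146, 50.3 and 134 RPKM in shHMGB1, against 85.1, 141 and 96.7 RPKM in shCTRL (log2 fold change -0.08 ± 0.41 SE). It was high and low within both groups, and without shHMGB1 replicate B its log2 fold change was 0.41.

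The 3 Cajal body RNAs were well covered, with at least 202 reads in each library. Scarna13, which resembles a pair of joined H/ACA RNAs, measured 489, 319 and 274 RPKM in shHMGB1, against 457, 609.8 and 347 RPKM in shCTRL. Only shHMGB1 replicate A exceeded the lowest shCTRL library, and the log2 fold change of -0.39 had an SE of 0.29 and a 95% interval of -1.06 to 0.28 (adjusted p = 0.744). Scarna2, which has no annotated host, measured 247, 225 and 143 RPKM in shHMGB1, against 223, 244 and 237 RPKM in shCTRL. The shCTRL libraries were close together at 235 ± 10.7 RPKM (SD, n = 3), and shHMGB1 replicate C alone stood low. Its log2 fold change was -0.23 ± 0.23 (SE, adjusted p = 0.777), and 0.01 without that library. Scarna6, from an intron of the autophagy gene Atg16l1, measured 78.7, 34.5 and 61.9 RPKM in shHMGB1, against 68.6, 80.2 and 55.4 RPKM in shCTRL. Its low value was in shHMGB1 replicate B, without which the log2 fold change of -0.29 ± 0.31 (SE) became 0.05.

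Positive fold changes were found for 8 members, 3 H/ACA and 5 C/D. Of them 0 had an unadjusted p below 0.05 in limma, against 7.91% of all genes in either direction. Snora23, in an intron of the importin gene Ipo7, measured 8.98, 4.26 and 6.64 RPKM in shHMGB1, against 4.04, 6.58 and 4.75 RPKM in shCTRL (log2 fold change 0.33 ± 0.30 SE). Snora52, from Rplp2, measured 12.4, 11.0 and 13.8 RPKM in shHMGB1, against 10.8, 12.9 and 7.24 RPKM in shCTRL (0.30 ± 0.23 SE). Snord14c, a U14 RNA from Hspa8 that acts in processing of small-subunit ribosomal RNA, measured 12.7, 10.2 and 13.4 RPKM in shHMGB1, against 12.9, 10.9 and 7.44 RPKM in shCTRL (0.24 ± 0.23 SE). For Snora52 and Snord14c the lowest library was shCTRL replicate C. The log2 fold changes were 0.18 for Snord69, 0.15 for Snord49a, 0.08 for Snord95, 0.05 for Snord52 and 0.01 for Snora75. Snord69, Snord49a, Snord95 and Snora75 turned negative without shHMGB1 replicate A, at -0.11, -0.20, -0.02 and -0.14. Adjusted p-values of the 8 lay between 0.750 and 0.992.

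**Figure D2:**
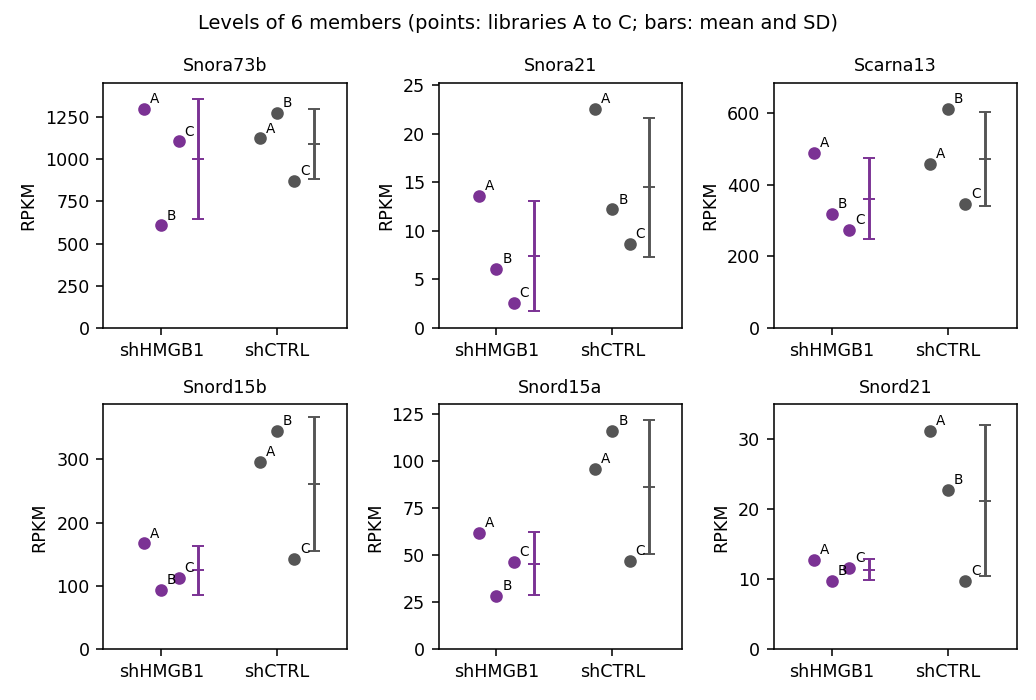
RPKM of 6 members in shHMGB1 (left, purple) and shCTRL (right, grey), with a lettered point per library and a bar for the mean and SD of 3 libraries. For Snord15b, Snord15a and Snord21 shCTRL replicates A and B stand above the shHMGB1 libraries and shCTRL replicate C lies within or below them.

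The libraries differed from each other in the level of small nucleolar RNAs across the group boundary. Expressed as the mean deviation from each member's own average on the log2 scale, the 50 members stood at 0.35, -0.45 and -0.29 in replicates A, B and C of shHMGB1, against 0.45, 0.26 and -0.32 in the shCTRL replicates A, B and C. H/ACA members stood at 0.34, -0.45 and -0.27 in shHMGB1, against 0.39, 0.31 and -0.32 in shCTRL. C/D members stood at 0.36, -0.46 and -0.30 in shHMGB1, against 0.53, 0.21 and -0.34 in shCTRL. So shHMGB1 replicate A was high with shCTRL replicates A and B, and shCTRL replicate C was low with shHMGB1 replicates B and C, in both large classes. Cajal body members stood at 0.28, -0.36 and -0.37 in shHMGB1, against 0.13, 0.39 and -0.07 in shCTRL, the same division with smaller distances in shCTRL.

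Scaled to library size as RPM, the member reads together came to 923, 523 and 612 RPM in replicates A, B and C of shHMGB1, against 889, 1023 and 641 RPM in the shCTRL replicates A, B and C. Above their own average were 45, 2 and 14 of the 50 members in the shHMGB1 libraries, against 45, 40 and 8 in the shCTRL libraries, while 48.2% to 51.7% of all genes were above theirs in any library. Within shHMGB1, replicate A exceeded replicate B for 48 of 50 members, with a median log2 difference of 0.83, and exceeded replicate C for 43, with a median of 0.66. Within shCTRL, replicates A and B exceeded replicate C for 45 and 44 members, with medians of 0.79 and 0.55. These 4 medians exceeded the members' median fold change between groups in size. Each compares single libraries, however, whereas the fold change compares means of 3 libraries, which vary less. The same library pairs had medians between -0.01 and 0.03 over all genes. shHMGB1 replicates B and C, by contrast, were nearly level, with 25 of 50 members higher in B and a median of -0.07, and shCTRL replicate A exceeded replicate B for 28 members, with a median of 0.20.

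The residual ribosomal RNA of the libraries followed the same division. Rn18s-rs5, a ribosomal RNA gene copy, measured 9004, 2567 and 623 RPKM in replicates A, B and C of shHMGB1, against 22963, 62830.0 and 2177 RPKM in the shCTRL replicates A, B and C. The highest shHMGB1 library lay below shCTRL replicates A and B, and shCTRL replicate C lay inside the shHMGB1 range. Its log2 fold change was -2.59 ± 1.32 (SE, adjusted p = 0.687 in limma). The 3 libraries with the most Rn18s-rs5, shHMGB1 replicate A and shCTRL replicates A and B, were also the 3 highest libraries for 33 of 50 members (66.0%), against 20.2% of all genes. This held for 13 of 21 H/ACA, 18 of 26 C/D and 2 of 3 Cajal body members. Among those 3 libraries the order differed: shCTRL replicate B had the most Rn18s-rs5, and the C/D members were highest in shCTRL replicate A. Of the 4 listed fibroblast markers Col1a1 was lowest in the same 3 libraries, whereas Dcn and Lum were lowest in shCTRL replicate C and Pdgfra in shHMGB1 replicate A. Library sizes overlapped, with 10871000 to 19539000 reads in those 3 and 14894000 to 25560000 in the others. The part of residual ribosomal RNA or of other RNA content in the members' levels was not tested. The fit with the Rn18s-rs5 covariate cannot separate it from the group, because Rn18s-rs5 itself differed between the groups.

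**Figure D3:**
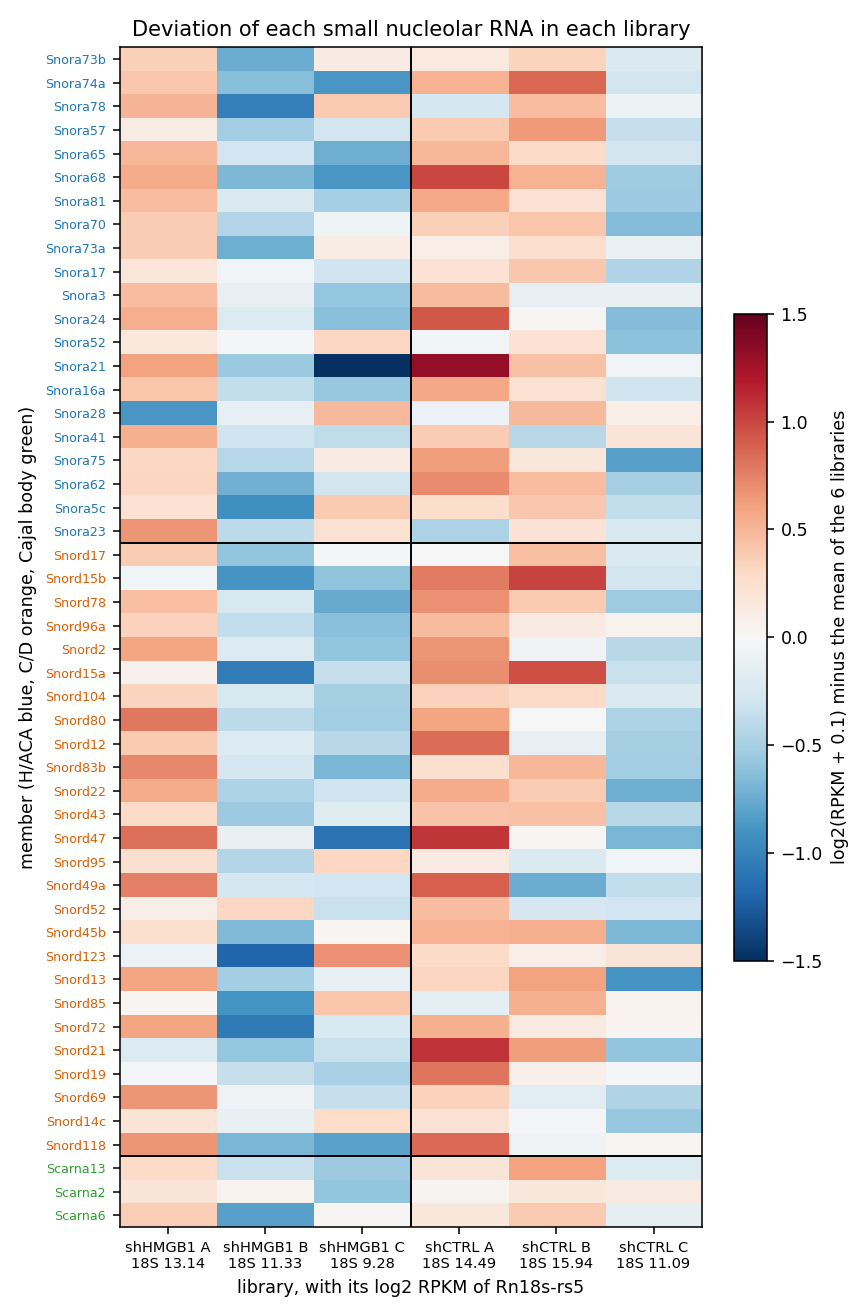
Deviation of each member from its mean over the 6 libraries on the log2(RPKM + 0.1) scale, red above and blue below, with shHMGB1 libraries left of the line and shCTRL libraries right of it, and the log2 RPKM of Rn18s-rs5 under each library. shHMGB1 replicate A and shCTRL replicates A and B are mostly red (45, 45 and 40 of 50 members above their mean), and the other 3 libraries are mostly blue.

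**Figure D4:**
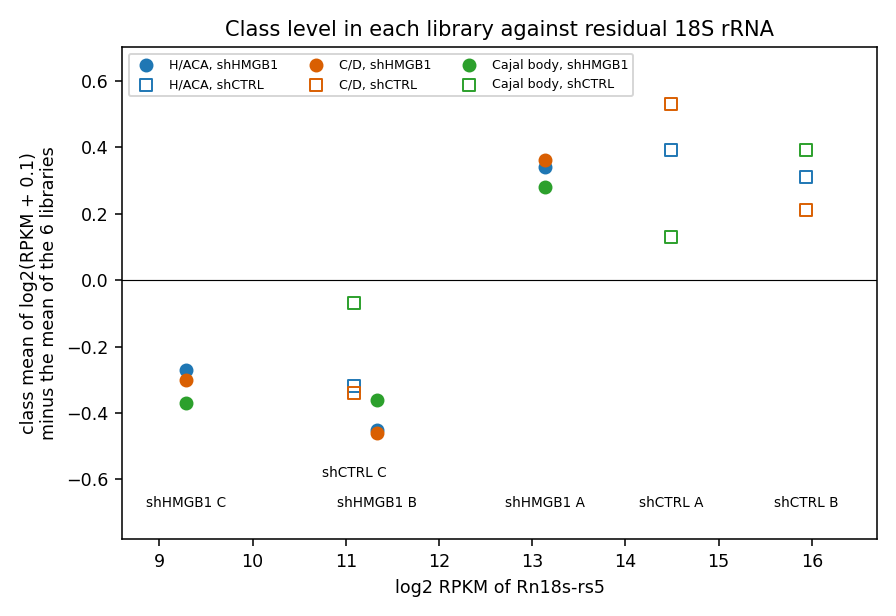
Mean deviation of each class (H/ACA blue, C/D orange, Cajal body green) against the log2 RPKM of Rn18s-rs5, with filled circles for shHMGB1 libraries and open squares for shCTRL libraries. The 3 libraries at 13.14, 14.49 and 15.94 have class means above 0 and the 3 at 9.28, 11.09 and 11.33 have class means below 0.

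The median residual SD between replicates was 0.53 on the log2 scale for members, against 0.26 over all genes and 0.33 over the members' host genes. It was 0.52 for H/ACA, 0.58 for C/D and 0.42 for Cajal body members. Over 15 other short or unpolyadenylated RNAs, Rn18s-rs5 included, it was 0.47, so a spread above that of all genes was not particular to the members. These medians were not matched for depth, and 21 of 50 members averaged below 30 reads. Some members departed from the shared division. Snora28, in Eif5, measured 5.35, 9.02 and 13.9 RPKM in shHMGB1, against 9.31, 13.9 and 10.6 RPKM in shCTRL, and its lowest library was shHMGB1 replicate A. Snora23 was lowest in shCTRL replicate A. These RNAs rested on 13 to 34 and 10 to 32 reads per library, and Snora28 was picked after its values were seen.

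Host genes divided the libraries in the same way. Of 33 tested host genes, 21 (63.6%) had the same 3 libraries highest. Their log2 fold changes had a median of -0.17 under the authors' scaling, with 25 of 33 negative. At an unadjusted p below 0.05 in limma there were 0 of them, against 7.91% of all genes. Rpl10, among the most abundant hosts, had -0.21, Ncl, the nucleolin gene that holds Snora75, had 0.44, and 2410006H16Rik, which holds Snord49a, had -0.35. For the 41 members with a tested host, member and host were both lower in 27 cases, both higher in 3, the member alone lower in 6 and the host alone lower in 5. Across these 41 members Pearson's r between the fold changes of member and host was 0.42, a description across genes that share libraries and, in exons, possibly reads. Members lay below their host in 26 of 41 cases, with a median difference of -0.08.

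Members of the same host did not always have like values. In Rack1, Snord96a had a log2 fold change of -0.44 and Snord95 of 0.08, with -0.36 for the host. In Gnl3, Snord19 had -0.57 and Snord69 had 0.18, with -0.12 for the host. The Gas5 members Snord78, Snord80 and Snord47 had -0.36, -0.08 and -0.26, with -0.25 for Gas5, and the Rpl3 members Snord43 and Snord83b had -0.30 and -0.14, with 0.05 for Rpl3. Eif4a2 holds a C/D and an H/ACA member, Snord2 at -0.13 and Snora81 at -0.16, with -0.10 for the host. The differences between such neighbours were not tested.

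**Figure D5:**
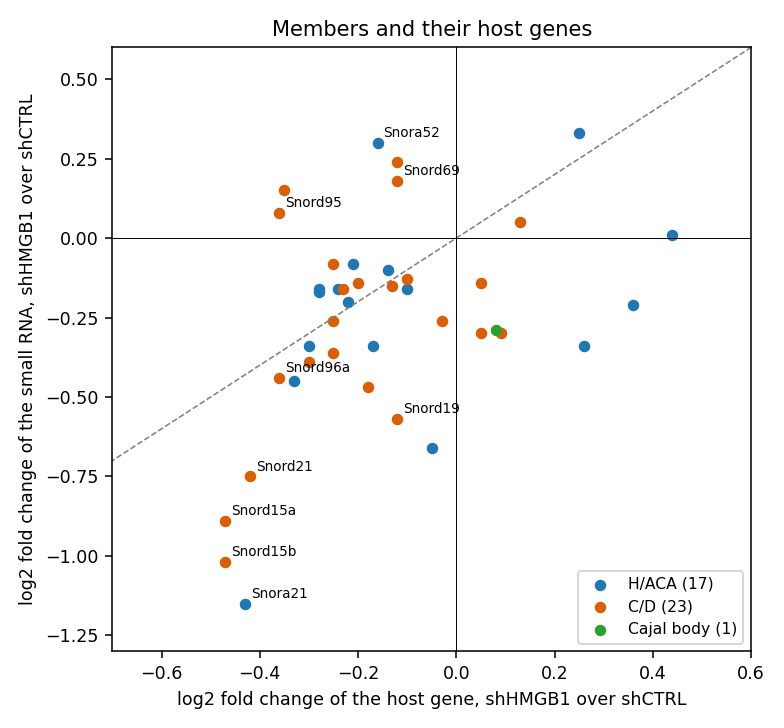
Log2 fold change of each member (vertical) against that of its host gene (horizontal), shHMGB1 over shCTRL as deposited, for 17 H/ACA, 23 C/D and 1 Cajal body members, with a dashed line of equality. Of the 41 points 27 are negative on both axes, and the Rps3, Rpl5 and Rpl23 members lie lowest.

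Genes for proteins that bind, build or trim small nucleolar RNAs showed no call, where only 0.0257% of all genes tested were called. Of the 4 tested C/D core proteins 0 passed the threshold (median log2 fold change 0.04). Nop56 measured 174, 138 and 98.7 RPKM in shHMGB1, against 157, 92.0 and 104 RPKM in shCTRL, and fibrillarin, Fbl, the methyltransferase, measured 17.4, 45.2 and 29.7 RPKM in shHMGB1, against 26.8, 14.2 and 39.6 RPKM in shCTRL. The ranges overlapped for both. Snu13, which binds the C/D fold first, averaged 46.7 ± 11.7 RPKM in shHMGB1 and 50.2 ± 6.79 RPKM in shCTRL (SD, n = 3 each). Of the 4 H/ACA core proteins 0 passed the threshold (median -0.25). Nop10 measured 53.3, 36.4 and 26.5 RPKM in shHMGB1, against 53.4, 64.0 and 42.3 RPKM in shCTRL (log2 fold change -0.50, adjusted p = 0.704), and Dkc1, the pseudouridine synthase dyskerin, measured 39.2, 32.0 and 25.2 RPKM in shHMGB1, against 41.6, 39.2 and 31.5 RPKM in shCTRL. Nhp2, an RNA-binding subunit, averaged 68.1 ± 19.5 RPKM in shHMGB1 and 81.1 ± 11.7 RPKM in shCTRL (SD, n = 3 each). Fbl and Dkc1 were chosen for their roles, and Gar1 to complete its list, after values were seen.

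In the other lists 0 genes were called as well, against 0.0257% of all genes tested. The 9 assembly factors had a median of -0.16, with -0.26 for Ruvbl1 and -0.10 for Ruvbl2, a pair of ATPases. The 10 Cajal body and transport proteins had a median of 0.12, with 0.17 for the nucleolar phosphoprotein gene Nolc1 and 0.06 for the deubiquitinase gene Usp7. The 20 end-processing and decay factors had a median of 0.05, with 0.00 for the exosome subunit gene Exosc9 and -0.22 for the exonuclease gene Xrn2. At an unadjusted p below 0.05 in limma there were 0 genes in these 3 lists and in both lists of core proteins, against 7.91% of all genes. The 23 genes of RNA polymerase I and ribosomal RNA processing had a median of 0.06, with -0.36 for the nucleophosmin gene Npm1 and -0.07 for Polr1d. Of these, 2 (8.70%) had an unadjusted p below 0.05 in limma, close to the 7.91% of all genes. Non-coding host genes, 16 tested, had a median of -0.15, with -0.25 for Gas5 and -0.20 for Snhg1.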

How the data were processed

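RNA-seq of 3 shHMGB1 and 3 shCTRL cultures was analysed. The submitters' processing notes name edgeR, featureCounts, STAR 2.5.3a and Trimmomatic 0.32, and the builds GRCm38 and mm10. The deposited values are log2 RPKM, scaled by the authors to gene length and library size, and were raised as powers of 2. No source used here gives the gene model, the strand setting or the filter. Library sizes came from the steps between low values, of which 95.1% to 96.4% were whole reads within 0.1, and all 50 members gave whole reads with their GENCODE M21 lengths. With base e instead of base 2, 22.4% to 27.1% of low values were whole.

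On log2(RPKM + 0.1), limma 3.58.1 (R 4.3.3) was fitted to the 11669 genes averaging 0.5 RPKM or more, which left out 465, with eBayes trend and robust, two-sided, Benjamini-Hochberg adjustment and a threshold of 0.05, after tests on simulated data. This scale understates fold changes of low genes. Errors are limma's SE, with 95% intervals. The smallest p of an exact permutation test with 3 libraries a group is 0.1. Identity between members was computed with Biopython 1.88 and copies were sought with BLAST+ 2.17.0. Alternatives were other pseudocounts, filters and scalings, a Rn18s-rs5 covariate, a replicate block, leaving out each library, members by overlap with other genes, and, added after the data were seen, nothing added to the values and voom on recovered reads.

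The members and lists were chosen with earlier results of these data known. Named were, per class, the 6 most abundant members and the 4 with the smallest p in each direction, their hosts, and the 2 most abundant genes of each list. Others were picked later and are marked so. The values of 1 such member with its host are not reported here. Counting error alone limits a member with few reads, and no molecular identifiers are mentioned.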

Additional observations from a re-analysis of the deposited data

How the results depend on the processing

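The number of members past the threshold was 0 in all 19 fits, and Snord15b, Snord15a, Snord19, Snord21, Snora21, Snora57, Snora74a and Snord96a kept a negative and Snora23, Snora52 and Snord14c a positive log2 fold change in each. The number of all genes past the threshold was 3, and it was 0 among genes of at least 5 RPKM, 5 with the Rn18s-rs5 covariate and 7 with the replicate block. Leaving out 1 library gave 0 to 8. No label says whether the letters pair the samples. Deviations of same-lettered libraries had correlations of 0.15, -0.10 and 0.48 for A, B and C, and shHMGB1 replicate A went best with shCTRL replicate B (0.54). Deviations from a mean of 3 libraries depend on each other, so these values cannot settle whether there was pairing. With the block, 7 members had an unadjusted p below 0.05 in limma, where 10.7% of all genes had one, and 0 were called (smallest adjusted p = 0.180, Snora21). The C/D median was 0.18 with the covariate. The class medians without 1 library ran from -0.43 to -0.12 for H/ACA, -0.48 to -0.06 for C/D and -0.54 to -0.19 for Cajal body members. Among members that overlap no other exon they were -0.11 (7 members), -0.30 (11) and -0.26 (2).

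Signs turned for single members. With quantile normalization Snora75 was -0.06 and Snora78 was 0.02. With equal sums the all-gene median was 0.32 instead of 0.01, a shift that by construction carries small negative values above 0: Snora73b was 0.14, Snora78 0.23, Snord17 0.15, Snord2 0.18, Scarna2 0.08 and Scarna6 0.02. With the covariate Snora65 was 0.18, Snora68 0.11, Snora73b 0.06, Snora78 0.07, Snord17 0.14, Snord2 0.35, Snord78 0.29 and Scarna13 0.07. Leaving out 1 library gave -0.39 to 0.01 for Scarna2, -0.54 to 0.05 for Scarna6, -0.39 to 0.15 for Snora73b, -0.39 to 0.33 for Snora75, -0.35 to 0.41 for Snora78 and -0.39 to 0.10 for Snord17. It gave -0.46 to 0.17 for Snord2, -0.20 to 0.63 for Snord49a, -0.11 to 0.40 for Snord69 and -0.06 to 0.32 for Snord95. Over the 25 members chosen by level and p, 415 of the alternative values kept their sign and 35 did not. Apart from equal sums, the cause of these turns was not tested. Depth limits the 21 members with a mean below 30 reads.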

Other observations

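Other short or unpolyadenylated RNAs that are not small nucleolar RNAs had negative log2 fold changes in 12 of 15 tested genes, Rn18s-rs5 included. Their median was -0.46. In limma 0 of them passed the threshold, against 0.0257% of all genes, and 1 (6.67%), Rny3, had an unadjusted p below 0.05, against 7.91%. Rn7sk, a regulator of transcription elongation, measured 69380.1, 50319 and 38638 RPKM in shHMGB1 replicates A, B and C, against 74303, 89069.7 and 53176 RPKM in shCTRL replicates A, B and C (log2 fold change -0.46, adjusted p = 0.742). It was high in shHMGB1 replicate A and shCTRL replicates A and B, as most small nucleolar RNAs were. Rmrp, the RNA of a ribosomal RNA processing nuclease, measured 29104, 19005 and 23984 RPKM in shHMGB1, against 18268, 27912 and 20830.0 RPKM in shCTRL (log2 fold change 0.11). Its highest library was shHMGB1 replicate A and its lowest shCTRL replicate A.

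Rny3, a Y RNA, measured 186, 85.3 and 142 RPKM in shHMGB1, against 342, 205 and 179.6 RPKM in shCTRL (log2 fold change -0.83 ± 0.34 SE, adjusted p = 0.622). Rnu11, of the minor spliceosome, measured 46.7, 30.5 and 21.1 RPKM in shHMGB1, against 89.4, 107 and 31.3 RPKM in shCTRL (log2 fold change -1.10 ± 0.48 SE, adjusted p = 0.630). Terc, the telomerase RNA, which ends in an H/ACA domain, measured 13.7, 6.56 and 7.97 RPKM in shHMGB1, against 12.6, 12.9 and 6.79 RPKM in shCTRL (log2 fold change -0.21). Like the small nucleolar RNAs, Terc was highest in shHMGB1 replicate A and shCTRL replicates A and B. Rny3, Rnu11 and Terc were chosen after their values were seen.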
